A study of Mus musculus with 8 samples.

Results

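Lipocalin 2, serum amyloid A, haptoglobin, hemopexin, orosomucoid, ceruloplasmin and lactoferrin are secreted proteins of the acute-phase response, and most of them bind iron, haem or haemoglobin. They are considered here as 10 genes, Lcn2, Saa1, Saa2, Saa3, Hp, Hpx, Orm1, Orm2, Cp and Ltf, chosen by name in a table of read counts from mouse kidney. The genes were chosen with their response to cisplatin in these kidneys already known, so for them the difference between the groups is described and not tested. The study sequenced poly(A) RNA of whole kidneys from 4 control and 4 cisplatin-treated mice. All mice were wild type (WT), and the study's methods describe male C57/BL6J animals. Cisplatin, a platinum drug that injures the proximal tubule, was injected intraperitoneally at 23 mg/kg, the controls received saline, and kidneys were taken at 72 h. The labels number the controls 1, 2, 3 and 5 and the cisplatin-treated kidneys 1, 3, 4 and 6, and each library is taken as the kidney of a separate mouse.

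Of the 10 genes, 4 had a usable row of 8 counts, namely Lcn2, Saa1, Hp and Hpx. The rows of the other 6, Saa2, Saa3, Orm1, Orm2, Cp and Ltf, held 10 values under a header that names 8 libraries, so their values could not be assigned to kidneys and were not used here. The whole table has 53715 rows, of which 35880 held 8 counts, and 9141 of these passed the default filter on low counts, the 4 genes among them. Lcn2 had at least 24 counts in every control, whereas Saa1, Hp and Hpx, with at most 2, 33 and 5 counts in any control, passed only through their counts in the cisplatin-treated kidneys.

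The acute-phase response is a change in the secreted proteins made mainly by the liver, and at local sites by epithelial cells and leukocytes, after injury or infection. Cytokines such as interleukin-1, interleukin-6 and oncostatin M switch these genes on through the transcription factors NF-κB, STAT3 and the C/EBP proteins. Lipocalin 2, also called NGAL, captures the siderophores with which bacteria collect iron, and it is widely measured as a marker of injury to the kidney tubule. Haptoglobin captures free haemoglobin and hemopexin captures free haem, and both complexes are taken up and broken down by cells that carry their receptors.

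The 250 bases before a RefSeq start are shown for Lcn2, Saa1 and Hpx, and for Saa2, the close copy of Saa1. They hold the C/EBP motif that the members with a promoter share. The sequences are from RefSeq on GRCm38.p6, 5′ to 3′ on the strand of the gene, and the capitals mark the C/EBP motif TTGCNNAA on either strand. RefSeq promoters were matched for 8 of the 10 genes, and Hp and Orm1 had no entry.
Lcn2, chr2:32387740-32387989, minus strand: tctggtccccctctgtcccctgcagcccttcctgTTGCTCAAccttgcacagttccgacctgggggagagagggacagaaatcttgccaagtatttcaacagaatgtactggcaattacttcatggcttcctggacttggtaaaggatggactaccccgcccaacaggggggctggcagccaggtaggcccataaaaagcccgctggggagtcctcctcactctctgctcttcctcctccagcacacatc
Saa1, chr7:46742981-46743230, minus strand: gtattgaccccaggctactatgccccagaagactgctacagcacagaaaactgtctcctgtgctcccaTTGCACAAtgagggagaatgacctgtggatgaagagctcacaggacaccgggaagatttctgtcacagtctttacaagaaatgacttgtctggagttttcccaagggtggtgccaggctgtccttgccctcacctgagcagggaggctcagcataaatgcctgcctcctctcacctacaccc
Saa2, chr7:46751583-46751832, plus strand: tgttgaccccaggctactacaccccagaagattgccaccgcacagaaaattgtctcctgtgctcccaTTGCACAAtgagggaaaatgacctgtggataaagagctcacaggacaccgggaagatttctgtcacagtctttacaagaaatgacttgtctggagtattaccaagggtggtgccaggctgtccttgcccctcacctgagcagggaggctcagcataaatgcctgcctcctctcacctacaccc
Hpx, chr7:105600117-105600366, minus strand: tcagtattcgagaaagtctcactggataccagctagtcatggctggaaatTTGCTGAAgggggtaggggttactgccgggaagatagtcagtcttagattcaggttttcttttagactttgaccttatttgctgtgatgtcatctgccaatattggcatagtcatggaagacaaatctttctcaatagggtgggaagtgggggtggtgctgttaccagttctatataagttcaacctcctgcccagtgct
For the other members, 28 bases around the motif are given.
Saa3, chr7:46715758-46715785, minus strand: gtaagtgggaTTATGCAAgatcaaacag
Orm2, chr4:63362319-63362346, plus strand: agagaacattTTGCGCAAgacatttccc
Ltf, chr9:111019207-111019234, plus strand: ggcaggcctaTTGGGCAAtagggtgggg
Cp, chr3:19957169-19957196, plus strand, before the second of its annotated starts: ttagttactcTTTTGCAAcattaaattg
The motif was found in each of the 8 genes, and in 8 of their 9 windows, since Cp has 2 annotated starts. It occurred in 9.57% of the 32841 windows of the same length before annotated mouse gene starts. Counted back from the RefSeq start, its first base lay between positions -216, in Lcn2, and -70, in Cp. The RefSeq start can differ from the start in the gene positions that come with the counts. By those positions the Lcn2 window lies inside the gene (32384633 to 32388252). The Cp motif lies inside its gene, which begins at 19957054. The windows of Saa2, Saa3, Hpx and Ltf overlap their genes in part. Saa1 and Saa2 carried it at nearly the same place, -182 and -183, and Orm2 carried a form that reads the same on both strands at -120. The STAT motif TTCNNNGAA, found in 7.02% of all windows, and the kappaB motif, found in 7.25%, were in none of the 9 windows. A match is a run of letters in the window and was not tested as a binding site.

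Counts over usable rows totalled between 13539665 and 16201443 in the controls and between 10953338 and 16701599 in the cisplatin-treated kidneys, so that a level of 3 counts, treated as the limit of measurement, was 0.136 to 0.266 CPM (read counts scaled to a common library size after TMM normalization, by the trimmed mean of log ratios). Mitochondrially encoded genes took 13.7% to 18.8% of the counts in the controls and 8.95% to 14.0% with cisplatin. Cisplatin kidneys 1 and 3 had at most 3 counts of the Y-linked genes Eif2s3y and Kdm5d, against 274 to 1333 in the other 6 libraries, which does not match the male mice of the methods. The second principal component, holding 15.4% of the variance, set control 5 and cisplatin 4 and 6 apart from the other 5 libraries. Values are therefore also given within these sets, called the first set (control 1, 2, 3 and cisplatin 1, 3) and the second set (control 5 and cisplatin 4, 6). Control 5 is the only control of the second set. The cisplatin kidneys of the first set are those that lack Y-linked counts. Within the cisplatin group, library set and lack of Y-linked counts cannot be told apart.

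Lcn2 was low in every control kidney and among the most abundant transcripts of every cisplatin-treated kidney. Levels are given as TMM-normalized CPM. In controls 1, 2, 3 and 5 its level was 2.13, 4.15, 2.43 and 4.40 CPM, from 24, 52, 32 and 56 counts. In cisplatin kidneys 1, 3, 4 and 6 it was 2134.63, 2660.58, 1836.99 and 1292.19 CPM, from 16295 to 48381 counts. The groups did not overlap, and the lowest cisplatin-treated kidney stood 293-fold above the highest control. The mean was 3.28 ± 1.17 CPM (SD, n = 4) in the controls and 1981.1 ± 572 CPM (SD, n = 4) in the cisplatin-treated kidneys, and the fitted log2 fold change was 9.23 with a standard error of 0.41. Among all 9141 genes this log2 fold change ranked 18 from the top, and 0.241% of the genes had one above 9.

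The first set of libraries had the higher Lcn2 levels under cisplatin, with a mean of 2397.6 CPM against 1564.59 CPM in the second set, a ratio of 1.53. The fold over the controls of the same set was 827 in the first set and 355 in the second. Without cisplatin 1 and 3, the libraries that lack Y-linked counts, the log2 fold change was 8.90. Lcn2 lies on chromosome 2 of GRCm38 from 32384633 to 32388252, on the minus strand, and no other annotated gene of GENCODE M21 overlaps it.

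Saa1, which encodes a serum amyloid A protein carried on high-density lipoprotein, was at or below the measurable level in every control and above it in every cisplatin-treated kidney. The controls held 2, 0, 0 and 0 counts, and cisplatin kidneys 1, 3, 4 and 6 held 105, 137, 372 and 118 counts. As levels, the cisplatin-treated kidneys had 4.78, 7.53, 27.2 and 9.36 CPM, and control 1 had 0.177 CPM. Kidney 4 was the highest by a wide margin, at 5.70 times the level of kidney 1, the lowest, and the groups did not overlap. Against the level of 3 counts in the controls, the cisplatin mean of 12.2 ± 10.2 CPM (SD, n = 4) was at least 46.0-fold higher. The bound was at least 27.2-fold without kidney 4 and at least 17.98-fold for the lowest kidney alone. In contrast to Lcn2, the mean of the cisplatin-treated kidneys was higher in the second set, 18.3 CPM, than in the first, 6.15 CPM.

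Saa1 lies on chromosome 7 from 46740497 to 46742980, beside Saa4, Saa3 and Saa2. The coding sequences of Saa1 and Saa2 were identical at 95.1% of aligned positions (348 of 366), and their 250-base promoters at 94.8%. Of the 317 stretches of 50 bases in the Saa1 coding sequence, 47 occurred unchanged in Saa2, whereas none of its 267 stretches of 100 bases did. Reads were 150 bases long, and none of the 217 coding stretches of that length was shared. The bases outside the coding sequences were not compared, so the share of reads that match both copies is not known. How the counting treated such reads is not given in the sources used here, and the Saa1 counts carry that uncertainty. Saa3 and Saa4 were further from Saa1, at 75.1% and 64.4% identity of coding sequence.

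Saa4, the neighbouring serum amyloid A gene that is not a member, held 4, 1, 1 and 2 counts in the controls and 54, 21, 127 and 81 in the cisplatin-treated kidneys. It was up-regulated, from 0.167 ± 0.130 to 4.83 ± 3.73 CPM (log2 fold change 4.81, standard error 0.80, with a Benjamini-Hochberg adjusted p of 0.000932 from the quasi-likelihood test of edgeR). Its highest kidney, like that of Saa1, was cisplatin 4.

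Hp, which encodes haptoglobin, was above 3 counts in 3 of the 4 controls and higher in each cisplatin-treated kidney. The controls had 1.59, 0.718, 0.152 and 2.59 CPM, from 18, 9, 2 and 33 counts. The cisplatin-treated kidneys had 12.8, 8.96, 5.93 and 7.06 CPM, from 282, 163, 81 and 89 counts. The groups did not overlap, but control 5 and cisplatin 4 were only 2.29-fold apart, and the controls themselves spanned 17.1-fold. The mean was 1.26 ± 1.07 CPM (SD, n = 4) in the controls and 8.69 ± 3.03 CPM (SD, n = 4) with cisplatin, a log2 fold change of 2.78 with a standard error of 0.62. Within the first set the fold was 13.3 and within the second 2.50. Without control 5 the log2 fold change was 3.41, and without the libraries that lack Y-linked counts it was 2.37. Hp lies on chromosome 8 from 109575128 to 109579172.

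Hpx, which encodes the haem carrier hemopexin, was near the measurable level in the controls and above it in each cisplatin-treated kidney. Its controls had 0.443, 0.239, 0.379 and 0.236 CPM, from 3 to 5 counts each. Its cisplatin-treated kidneys had 1.32, 1.32, 1.17 and 2.54 CPM, from 29, 24, 16 and 32 counts. The groups did not overlap, and the lowest cisplatin-treated kidney stood 2.65-fold above the highest control. The mean was 0.324 ± 0.103 CPM (SD, n = 4) in the controls and 1.59 ± 0.638 CPM (SD, n = 4) with cisplatin, with kidney 6 above the other 3. The log2 fold change was 2.26 with a standard error of 0.41. The fold was 3.73 within the first set and 7.86 within the second, the opposite order to Hp and Lcn2. However, the second fold rests on control 5 alone, which at 3 counts was at the limit of measurement, so this order is uncertain. Hpx lies on chromosome 7 from 105591613 to 105600137.

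All 4 members lay higher in every cisplatin-treated kidney than in any control, as did 23.7% of all genes tested, and all 4 were called up-regulated, as were 19.2%. Since this difference chose the members, nothing is read from these counts. A call required an adjusted p under 0.05 and a log2 fold change of 1 or more in size.

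**Figure D1:**
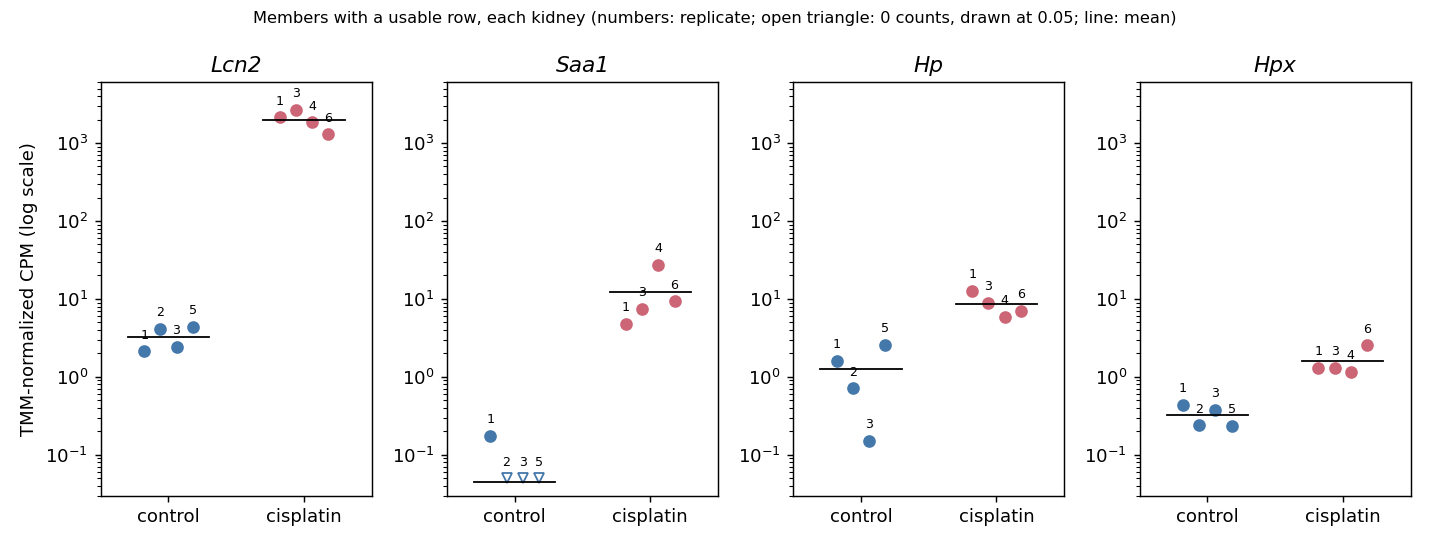
Level of Lcn2, Saa1, Hp and Hpx in each of the 8 kidneys, in TMM-normalized CPM on a log axis, with a line at the mean of each group of 4 and open triangles for kidneys with 0 counts, placed at 0.05. The cisplatin-treated kidneys lie above all controls for each gene, by the widest margin for Lcn2 (1292.19 CPM or more against 4.40 CPM or less) and by the narrowest for Hp (5.93 against 2.59 CPM).

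Per kilobase of the gene length that the table gives, the members differed in level over a wide range in the cisplatin-treated kidneys. Lcn2 reached 755 ± 218 CPM per kb, Hp 5.41 ± 1.88, Saa1 4.93 ± 4.11 and Hpx 1.06 ± 0.425 CPM per kb (SD, n = 4 each). Hp and Saa1 did not differ beyond their spread, while Lcn2 stood far above both. In the controls the order was Lcn2 at 1.25 ± 0.444, Hp at 0.787 ± 0.664 and Hpx at 0.216 ± 0.0690 CPM per kb, of which Lcn2 and Hp did not differ beyond their spread, and Saa1 was below the measurable level in each. By level per kilobase, Lcn2 ranked between 6231 and 7238 among the 9141 genes in the controls and between 25 and 79 in the cisplatin-treated kidneys. Hp ranked between 6284 and 8876 in the controls and between 3626 and 5067 with cisplatin, and Hpx moved from 8378 to 8734 in the controls to 6481 to 7493. The lengths are those of the table, 2478 bases for Saa1 against a coding sequence of 366 bases, so values per kilobase depend on the authors' annotation.

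The 4 members did not rank the cisplatin-treated kidneys in the same order. Lcn2 was highest in kidney 3, Saa1 in kidney 4, Hp in kidney 1 and Hpx in kidney 6. Relative to its own mean over the 4 kidneys, Lcn2 ran from 0.652 in kidney 6 to 1.34 in kidney 3 and Hp from 0.682 in kidney 4 to 1.48 in kidney 1. Saa1 was the most variable, from 0.391 in kidney 1 to 2.23 in kidney 4, with a coefficient of variation of 83.3%, against 28.9% for Lcn2, 34.8% for Hp and 40.2% for Hpx. For each Saa1 count there were 447 Lcn2 counts in kidney 1 and 353 in kidney 3, but 67.5 in kidney 4 and 138 in kidney 6. The Lcn2 counts per Hp count were closer together, at 166, 297, 310 and 183 in kidneys 1, 3, 4 and 6.

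**Figure D2:**
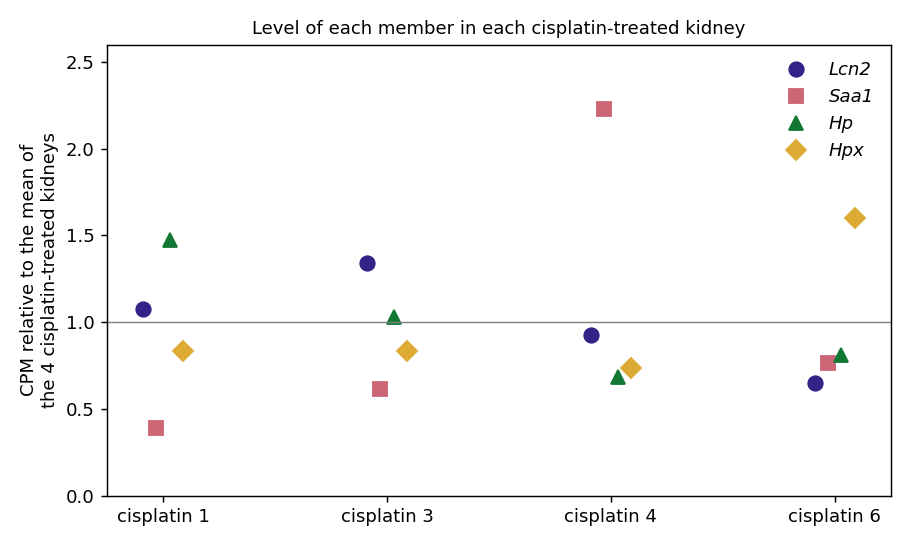
Level of each member in the 4 cisplatin-treated kidneys, as its TMM-normalized CPM divided by the gene's mean over these kidneys, so that 1 is the mean. Saa1 spreads from 0.391 to 2.23 and each of the 4 genes has its highest value in a different kidney.

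The genes most like each member were taken as those with the smallest root mean square difference in log2 CPM over the 8 libraries, after each gene was centred on its own mean. For Lcn2 these were Havcr1, at 0.611, Sprr2f, at 0.639, and Atg9b, at 0.986, where the median of all genes was 4.60. Havcr1 encodes KIM-1, another marker of the injured tubule. For Saa1 the nearest were Serpina3m, A830036E02Rik and Krt12, between 0.540 and 0.547 with a median of all genes of 3.03, and each of the 3 had 0 counts in all controls. For Hp they were Mfap5, Mmp3 and Abcb1b, between 0.477 and 0.555 with a median of 1.78, and for Hpx Ncaph, Gm26542 and Myrip, between 0.200 and 0.230 with a median of 1.07. Among the members, Hp and Hpx were nearest to each other, at 1.19, and Lcn2 and Hpx the furthest apart, at 3.74. Each gene was centred over both groups, so all these values include the size of the change with cisplatin, by which the members were chosen. Its log2 value was 2.78 for Hp, 2.26 for Hpx and 9.23 for Lcn2. A small difference is thus no likeness in the order of the kidneys, and Hp was highest in cisplatin 1 but Hpx in cisplatin 6.

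The gene lists here and below were written with earlier results of these data known, so their counts are descriptions. Of 20 genes for receptors and uptake of the members' proteins, 8 had usable rows and 6 were tested. Of these, 1 was called up-regulated (19.2% of all genes tested were) and 3 down-regulated (15.7% of all genes), with a median log2 fold change of -1.30 beside 0.08 for all genes. Lrp2, which encodes megalin, the receptor that retrieves lipocalin 2 and many other filtered proteins in the proximal tubule, fell from 3537.38 ± 418 to 164 ± 28.9 CPM (log2 fold change -4.43, standard error 0.22, adjusted p = 1.36e-06, edgeR). Cubn, which encodes its partner cubilin, fell from 872 ± 83.1 to 52.9 ± 13.01 CPM (log2 fold change -4.04, adjusted p = 2.45e-06, edgeR). In bulk tissue, fewer cells of a type and less RNA per cell cannot be told apart, and all 12 proximal tubule markers with usable rows, these 2 among them, were called down-regulated.

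Slc22a17, which encodes the lipocalin 2 receptor of the distal nephron, had 66.1, 61.5, 71.5 and 87.4 CPM in the controls and 44.0, 53.1, 33.5 and 38.5 CPM in the cisplatin-treated kidneys. The groups did not overlap, but the change, -0.76 on the log2 scale (standard error 0.18, adjusted p = 0.00705, edgeR), was under the size required for a call. Cd163, the macrophage receptor for haptoglobin bound to haemoglobin, had 1.33, 2.31, 0.607 and 0.550 CPM in the controls and 4.73, 4.07, 1.76 and 1.19 CPM with cisplatin. Its groups overlapped, and its change of 1.31 on the log2 scale did not pass (standard error 0.58, adjusted p = 0.0879, edgeR). It passed without control 2 (1.84, adjusted p = 0.0398, edgeR), without cisplatin 6 (1.56, adjusted p = 0.0489, edgeR) and in the first set alone (1.58, adjusted p = 0.0192, edgeR). It also passed with the library set as a covariate (1.58, adjusted p = 0.00623, edgeR) and with the replicate number as a block (2.22, adjusted p = 0.000762, edgeR), and it was 0.30 without the libraries that lack Y-linked counts. Scarb1, which encodes a lipoprotein receptor that also binds serum amyloid A, rose from 24.7 ± 0.914 to 62.6 ± 5.87 CPM (log2 fold change 1.34, adjusted p = 5.06e-05, edgeR). Lrp1, the receptor for hemopexin bound to haem, had a row of 10 values and was not used here.

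Of 51 inducing cytokines, receptors and transcription factors of the acute-phase response listed, 24 were tested. Of these, 11 were up-regulated (19.2% of all genes tested were), 2 were down-regulated (15.7% of all genes) and 11 did not pass, and the median log2 fold change was 0.92 beside 0.08 for all genes. Lif, a cytokine of the interleukin-6 family, showed the largest change among them, from 0.781 to 135 CPM (log2 fold change 7.41, standard error 0.30, adjusted p = 6.86e-07, edgeR). Il11, another cytokine of that family, rose from 0.246 to 7.54 ± 5.82 CPM (log2 fold change 4.90, adjusted p = 0.000304, edgeR). Osmr, the oncostatin M receptor, rose from 23.4 to 102 CPM (log2 fold change 2.13, adjusted p = 0.00258, edgeR). Il6ra, the interleukin-6 receptor, rose from 10.6 to 29.3 CPM (log2 fold change 1.47, adjusted p = 0.00373, edgeR), but at 0.85 it was no longer called without the libraries that lack Y-linked counts.

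Both C/EBP genes that are induced in the acute phase rose. Cebpd had 17.4, 14.8, 12.1 and 9.28 CPM in the controls and 61.4, 100.2, 129 and 117 CPM in the cisplatin-treated kidneys (log2 fold change 2.93, standard error 0.28, adjusted p = 3.68e-05, edgeR). Cebpb had 18.6, 18.5, 9.93 and 18.9 CPM in the controls and 49.99, 83.8, 101 and 125 CPM in the cisplatin-treated kidneys (log2 fold change 2.45, standard error 0.31, adjusted p = 0.000186, edgeR). The groups did not overlap for either gene, and whether the 2 proteins act at the motifs printed above was not tested. Relb, a subunit of NF-κB, rose from 9.16 to 53.2 CPM (log2 fold change 2.54, adjusted p = 1.31e-05, edgeR). The genes of this list that fell were Hnf4a (log2 fold change -3.18), a transcription factor of liver and proximal tubule, and Il22ra1 (-2.60), the interleukin-22 receptor, with adjusted p values of 7.96e-05 and 0.00199 by edgeR. Stat3, Socs3, Nfkbiz, Il6 and Tnf had rows of 10 values and were not used here.

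**Figure D3:**
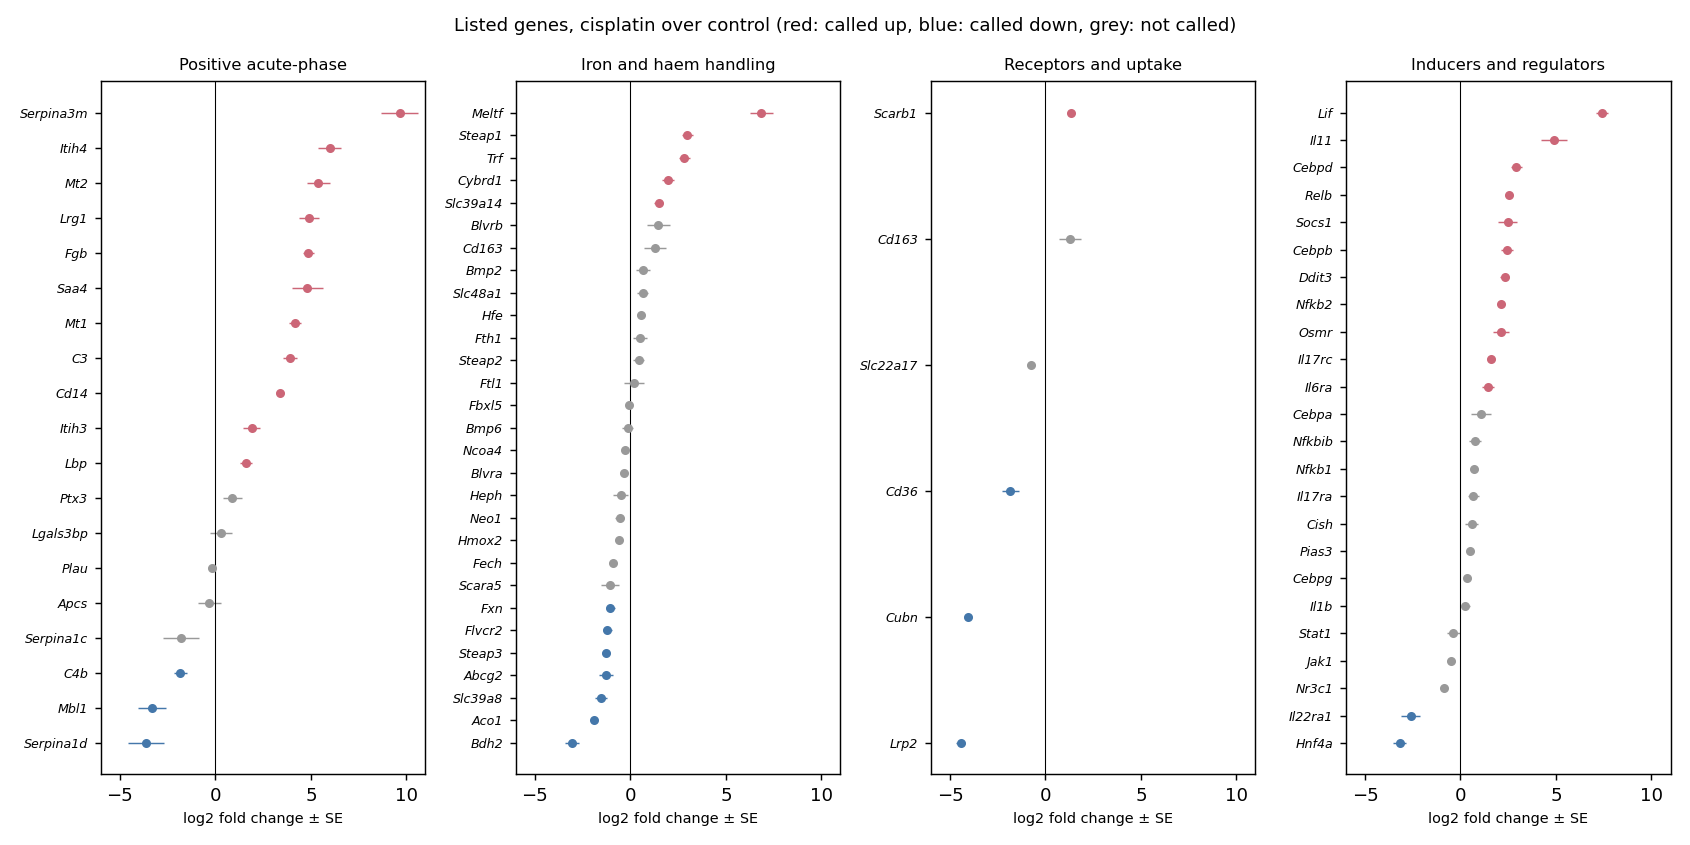
Log2 fold change of cisplatin against control for the tested genes of 4 lists around the members, with bars of 1 standard error, red for genes called up-regulated, blue for genes called down-regulated and grey for the rest. The positive acute-phase list has 11 red and 3 blue genes of 19, and the iron list has 5 red and 7 blue of 29. Of all genes tested, 19.2% were called up-regulated and 15.7% down-regulated.

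Of 42 other positive acute-phase genes listed beside the members, 21 had usable rows and 19 were tested. Of these, 11 were up-regulated (19.2% of all genes tested were), 3 down-regulated (15.7% of all genes) and 5 did not pass. The median log2 fold change was 1.90 beside 0.08 for all genes. Some of the 11, such as Serpina3m, passed the filter only through the cisplatin-treated kidneys. At a minimum of 10 counts in every library 6 were up-regulated (1101 of all 7485 genes were). The list was written with earlier results known, so nothing is read from these counts. Serpina3m, a serine protease inhibitor of a family with near-identical copies, had 0 counts in every control and 6.92 ± 4.17 CPM with cisplatin, at least 26.0-fold higher (adjusted p = 0.000267, edgeR). Itih4, an inter-alpha-trypsin inhibitor chain, rose from 0.141 ± 0.135 to 9.46 ± 3.18 CPM (log2 fold change 5.99, adjusted p = 4.45e-05, edgeR). Lrg1, a secreted leucine-rich glycoprotein, had 4.25, 4.71, 3.64 and 8.96 CPM in the controls and 73.4, 84.8, 311 and 177 CPM with cisplatin (log2 fold change 4.90, standard error 0.54, adjusted p = 9.00e-05, edgeR). Its highest kidney, as for Saa1, Saa4 and Serpina3m, was cisplatin 4. Mt2, a metallothionein that binds zinc and copper, rose from 0.322 ± 0.193 to 13.9 ± 8.68 CPM (log2 fold change 5.39, adjusted p = 8.30e-05, edgeR). Fgb, Saa4, Mt1, C3, Cd14, Itih3 and Lbp made up the other 7 up-regulated genes, with log2 fold changes from 1.60 to 4.87, and were named after their values were seen.

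The genes of this list that fell were Serpina1d, from 276 ± 120 to 22.5 ± 22.7 CPM (log2 fold change -3.63, adjusted p = 0.00921, edgeR), Mbl1 (-3.33, adjusted p = 0.00416, edgeR) and C4b (-1.83, adjusted p = 0.00183, edgeR). They encode an alpha-1-antitrypsin, a mannose-binding lectin and a complement component. Plau and Lgals3bp did not pass, with log2 fold changes of -0.19 and 0.31.

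Of 56 genes for iron, haem and siderophores listed, 32 had usable rows and 29 were tested, of which 5 were up-regulated (19.2% of all genes tested were), 7 down-regulated (15.7% of all genes) and 17 did not pass, with a median log2 fold change of -0.13 beside 0.08 for all genes. Trf, the plasma iron carrier transferrin and a negative acute-phase protein, rose from 0.702 ± 0.0947 to 5.03 ± 1.08 CPM (log2 fold change 2.83, adjusted p = 7.10e-05, edgeR). Meltf, the membrane-bound relative of transferrin and lactoferrin, had 0 to 3 counts in the controls and rose at least 47.7-fold, to 12.7 ± 4.97 CPM (adjusted p = 2.27e-05, edgeR). Steap1, of a family of metal reductases, rose from 5.71 to 45.5 ± 16.5 CPM (log2 fold change 2.99, adjusted p = 3.10e-05, edgeR). Cybrd1, which encodes a ferric reductase, rose from 1.33 to 5.19 CPM (log2 fold change 1.96, adjusted p = 0.000659, edgeR).

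Bdh2, an enzyme credited with making the mammalian siderophore that lipocalin 2 binds, was down-regulated in the cisplatin-treated kidneys. It had 292, 302, 292 and 440.005 CPM in the controls and 23.7, 22.2, 57.5 and 55.1 CPM with cisplatin, with no overlap (log2 fold change -3.07, standard error 0.36, adjusted p = 0.000120, edgeR). Aco1, the cytosolic aconitase that acts as iron regulatory protein, fell from 726 ± 101 to 194 ± 10.8 CPM (log2 fold change -1.91, adjusted p = 1.78e-05, edgeR). Slc39a8, a metal importer, and Abcg2, an exporter of porphyrins, fell as well (log2 fold changes -1.53 and -1.29, adjusted p = 0.00394 and 0.0162, edgeR), Abcg2 at -0.74 being no longer called without the libraries that lack Y-linked counts.

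The ferritin genes did not pass the test. Fth1 had 3760.26, 3632.67, 3827.28 and 7192 CPM in the controls and 4096.78, 4141.3, 9454.89 and 8490.73 CPM with cisplatin, so control 5 lay above cisplatin 1 and 3 (log2 fold change 0.51, standard error 0.37, adjusted p = 0.276, edgeR), though it passed at 1.06 when libraries were scaled by total count alone. Ftl1 showed the same split, with control 5 at 2138 CPM and cisplatin 4 and 6 at 1778 and 1832 CPM, against at most 766 CPM in the other 5 kidneys (log2 fold change 0.19, adjusted p = 0.795, edgeR). Control 5, the only control of the second set, and cisplatin 4 and 6 were thus the highest kidneys in both ferritins. Hmox1, Tfrc, Slc40a1 and Hamp had rows of 10 values and were not used here.

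Since neutrophils, macrophages and hepatocytes also make the members' proteins, markers of these cells were summed in each kidney. Neutrophil markers with usable rows (14 of 22) summed to between 29.2 and 82.4 CPM in the controls and between 46.9 and 87.5 CPM with cisplatin. Of the 10 tested, 6 were called up-regulated (19.2% of all genes tested were), S100a8, S100a9, Chil3, Il1r2, Cxcr2 and Retnlg. The granule genes Mpo, Ctsg and Fcnb were at 0 counts in all 8 libraries. They therefore give no comparison of the groups, and nothing on the presence of neutrophils is read from them. The sums overlapped between the groups. They include Lyz2, which macrophages also express and which did not pass (20.5 to 72.7 CPM in the controls and 11.7 to 61.4 CPM with cisplatin). Csf3r had 2.67 to 3.79 CPM in the controls and 4.68 to 8.03 CPM with cisplatin, with no overlap. Its log2 fold change of 0.91 (adjusted p = 0.0205, edgeR) was under the size required for a call. Mmp9 and Mmp25 did not pass, with log2 fold changes of 0.75 and -1.08. Hepatocyte markers (14 of 28) summed to between 313 and 817 CPM in the controls and between 67.5 and 348 CPM with cisplatin. Of 11 tested, 2, Fgb and Apoc1, were up-regulated and 5 down-regulated (19.2% and 15.7% of all genes were). Most of the control sum was Serpina1d (121 to 403 CPM) and Apob (164 to 375 CPM). With cisplatin these had 1.96 to 42.5 CPM and 20.3 to 192 CPM, and Apob was not called. Fgb went the other way, from 1.68 to 2.44 CPM in the controls to 36.7 to 88.0 CPM with cisplatin. Sums of macrophage markers (9 of 16) ranged from 58.7 to 69.4 CPM in the controls and from 35.1 to 75.5 CPM with cisplatin. Of 7 tested, Itgam was up-regulated (log2 fold change 3.07) and Cx3cr1 (-3.06) and Ccr2 (-1.85) were down-regulated. Of all genes tested, 19.2% were up-regulated and 15.7% down-regulated. Whether the Itgam counts came from macrophages or from other leukocytes was not tested. C1qb, at 24.5 to 43.6 CPM with cisplatin, was not called. Erythroid markers (7 of 10) summed to between 115 and 325 CPM in the controls and between 16.5 and 20.5 CPM with cisplatin. Of the 7, 4 were down-regulated (15.7% of all genes tested were). The sum includes Slc4a1, which is also listed as a marker of distal tubule and collecting duct. Slc4a1 had 94.0 to 124 CPM in the controls and 0.317 to 17.6 CPM with cisplatin, so the sum is not that of erythroid cells alone.

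Proximal tubule markers (12 of 12) summed to between 59998 and 76441 CPM in the controls and between 986 and 14354 CPM with cisplatin. Markers of the injured tubule (9 of 10) summed to between 1585 and 1832 CPM in the controls and between 16229 and 36339 CPM with cisplatin. Of the 9, 8 were called up-regulated (19.2% of all genes tested were). The sum was highest in cisplatin 3, but Spp1 (8665 to 23827 CPM with cisplatin) and Clu (3606 to 9101 CPM) made up most of it. The order of the kidneys was not compared marker by marker. The part of any of these cells in the members' levels was not tested, and the marker levels in the controls are those of kidney.

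**Figure D4:**
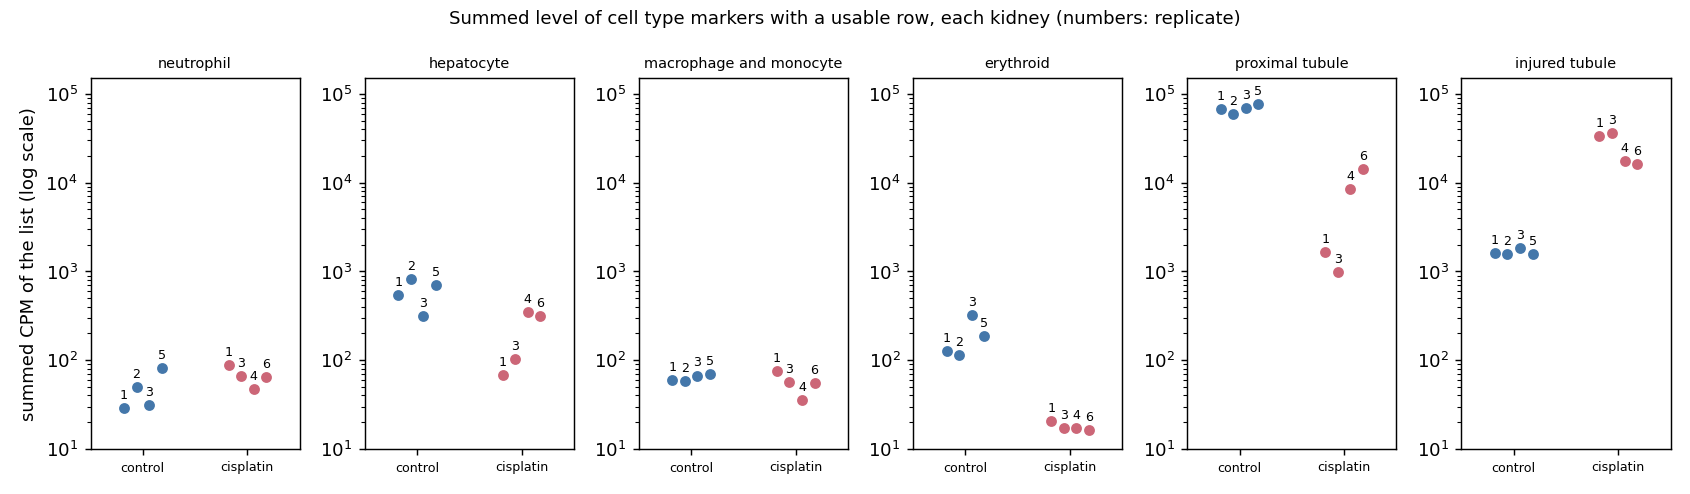
Summed TMM-normalized CPM of the markers of 6 cell types in each of the 8 kidneys, on a log axis. Injured-tubule markers lie between 16229 and 36339 CPM in the cisplatin-treated kidneys against 1832 CPM or less in the controls, and proximal tubule markers are lower in every cisplatin-treated kidney. The neutrophil sums, of which Lyz2 makes up as much as 72.7 CPM in a control, overlap. Of the 10 neutrophil markers tested, 6 were called up-regulated (19.2% of all genes tested were).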

How the data were processed

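Poly(A) RNA was sequenced from 4 control and 4 cisplatin-treated kidneys. The authors deposited raw read counts per gene, 1 column per library. The submitters' processing notes name fastp, HISAT2 and GRCm38, whereas the counter, annotation release and strand setting are not given in the sources used here. The labels describe a stranded VAHTS kit and the methods a GEXSCOPE kit. The table holds 53715 rows. Rows with 10 values under a header of 8 libraries (17835) were left out, so the 2 extra columns of values were not used and totals cover part of each library. Groups and replicate numbers came from the sample titles.

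In edgeR 4.0.16 (R 4.3.3), counts were filtered by the default rule, normalized by TMM and fitted by quasi-likelihood, and p values were adjusted over the 9141 genes tested by the Benjamini-Hochberg method. A gene was called if its adjusted p was under 0.05 and its log2 fold change 1 or more in size. The standard error was the absolute log2 fold change divided by the square root of F. No p is given for the members, which were chosen by this contrast. The members and gene lists were chosen with earlier results of these data known. Where every control had at most 3 counts, the fold is a lower bound against the highest CPM of 3 counts in a control, 0.266. This floor covers counting error only. Log2 CPM for the likeness of genes used a prior count of 2.

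From each list, the text names up to 4 called genes per direction with the largest change (mean over the libraries no lower than 1 CPM, groups not overlapping), up to 2 of the most abundant that did not pass, and a fixed set of receptors, ferritins and regulators. Gene positions are those of GENCODE M21, in which 53620 of the identifiers were found. Promoters were the 250 bases before RefSeq starts on GRCm38.p6, searched on both strands. The planned comparison of protein sequences was not run, and 1 gene of the regulator list is not reported here and is left out of its counts.

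Nothing in the labels says more of the replicates than their numbers, and the methods describe separate mice. The spread between genes' replicate counts was over sampling noise in every pair, with a smallest chi-square of 16.0 per gene. The procedure was tested on simulated data. Alternatives were DESeq2 1.42.0, other normalizations and filters, a stricter test of changes above 1 on the log2 scale, each library left out in turn, the replicate number as a block, the library sets as a covariate, and the first set alone. A fit without cisplatin 1 and 3, which lack Y-linked counts, was chosen after seeing the data.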

Additional observations from a re-analysis of the deposited data

Results flagged for a closer look

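In 95 groups of 4 kidneys, over the members and the named genes, 11 held 1 kidney whose gap to the nearest other took up more of the group's range than Dixon's critical value for 4 samples allows, where chance gives about 1 in 20. Among the members, Saa1 was at 0.177 CPM in control 1 and at 0 in the other controls, from 2 counts in all, and Hpx was at 2.54 CPM in cisplatin 6 where the remaining cisplatin-treated kidneys had 1.17 to 1.32 CPM.

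Control 5 stood apart in 5 of the 11 groups, each time as the highest control. It had 7192 CPM of Fth1 against 3633 to 3827 CPM in the other controls, 2138 CPM of Ftl1 against 566 to 766 CPM, 831 CPM of Abcg2 against 513 to 557 CPM, 440.005 CPM of Bdh2 against 292 to 302 CPM, and 7.39 CPM of Mbl1 against 2.83 to 3.59 CPM. Cebpb was low in control 3, at 9.93 CPM against 18.5 to 18.9 CPM. Cisplatin 4 stood above the other cisplatin-treated kidneys in Serpina3m, at 13.1 CPM against 4.01 to 5.55 CPM, in Ambp, at 11.1 CPM against 3.37 to 4.28 CPM, and in Relb, at 59.3 CPM against 50.9 to 51.4 CPM.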

How the results depend on the processing

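The members kept their direction under every alternative in which they were tested, with log2 fold changes of 8.90 to 10.03 for Lcn2, 6.08 to 10.51 for Saa1, 2.37 to 3.83 for Hp and 1.67 to 2.80 for Hpx. A minimum of 10 counts in every library removed Saa1, Hp and Hpx. Saa1 rested on 2 counts in control 1, and its fitted value, which is no bound, ran from 7.19 to 10.51 with 1 library left out, the highest without control 1. The causes of the changes below were not tested, except that fewer genes are tested at a minimum of 10 counts and fewer can pass the stricter test.

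Scaling by total count alone moved the median log2 fold change of all genes from 0.08 to 0.64, and the called genes from 1754 up and 1434 down (55.0% up) to 3174 up and 803 down (79.8% up). The members moved by about that shift, Lcn2 from 9.23 to 9.81 and Hpx from 2.26 to 2.80. With this scaling the iron list had 12 up and 2 down, the regulators 17 up, the receptors 2 up, the negative acute-phase list 2 up and the lipocalins 0 down, Jak1 changed sign to 0.089 and Plau to 0.38. At a minimum of 10 counts 1101 genes were up, with 6 of the positive and 0 of the negative acute-phase list, 3 of the iron list and 0 lipocalins up, and 0 of the negative list and 1 regulator down. Against a log2 fold change of 1, 885 genes were up and 803 down, with 2 iron genes and 0 lipocalins down. DESeq2 called 1771 up and 1524 down.

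With 1 library left out, the receptors up-regulated ran from 1 to 2, the second being Cd163 without control 2 or cisplatin 6. Genes that had not passed then changed sign, Ambp ranging from -0.24 to 0.49, Apoa4 from -0.14 to 1.23, Ftl1 from -0.099 to 0.79 and Lgals3bp from -0.14 to 0.68. In the first set alone Saa1 was 6.57, 5 positive and 2 negative acute-phase genes were down and 2 receptors up, with Ambp at -0.57, Apoa1 at -0.14, Apoa4 at -1.77 and Ftl1 at -0.31. With the library set as a covariate 2 receptors were up, Apoa4 was -0.55 and Ftl1 -0.25. Without cisplatin 1 and 3, 3 negative acute-phase genes were up, 4 regulators down and Lgals3bp was -0.32.

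Replicate numbers 1 and 3 occur in both groups, but the labels state no pairing, and libraries of the same number correlated in their deviations at 0.22 and 0.23, no more than differently numbered ones of the first set (0.13 to 0.33). When the replicate number was a block, a fit that rests on control 1 and 3 against cisplatin 1 and 3, Lcn2 was 10.03, Saa1 6.08 and Hpx 1.67, 1710 genes were up and 1404 down, 5 positive and 2 negative acute-phase genes were down and 2 receptors up. Ambp was then -0.40, Apoa4 -1.47, Ftl1 -0.37, Lgals3bp -0.055 and Plau 0.10.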

Other observations

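The negative acute-phase proteins, plasma proteins that the liver makes less of in the acute phase, and the wider lipocalin family held few genes with usable rows. Of 14 negative acute-phase genes listed, 4 were tested, of which Trf was up-regulated and Alb, which encodes albumin, was down-regulated, from 9.64 ± 2.14 to 1.95 ± 1.45 CPM (log2 fold change -2.33, standard error 0.54, adjusted p = 0.00553 by edgeR's quasi-likelihood test). Apoa4 and Apoa1, apolipoproteins of high-density lipoprotein, did not pass (adjusted p = 0.407 and 0.152, edgeR). Apoa1 passed at 1.83 and Apoa4 at 1.74 without cisplatin 1 and 3, the libraries that lack Y-linked counts. Apoa4 passed in the opposite direction in the first set alone (-1.77, adjusted p = 0.0164, edgeR) and with the replicate number as a block (-1.47, adjusted p = 0.000197, edgeR).

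Of 29 relatives of Lcn2 in the lipocalin and fatty acid binding protein family, 15 had usable rows and 4 were tested. Crabp2, which carries retinoic acid, was at least 15.1-fold higher with cisplatin (adjusted p = 0.000502, edgeR), and Apod, which encodes apolipoprotein D, rose from 0.328 to 4.34 CPM (log2 fold change 3.70, adjusted p = 8.33e-05, edgeR). Fabp3, the fatty acid binding protein of heart and muscle, fell from 90.2 to 35.0 CPM (log2 fold change -1.36, adjusted p = 0.00303, edgeR). Ambp, which encodes the haem-binding alpha-1-microglobulin, did not pass, at 4.64 CPM in the controls and 5.75 CPM with cisplatin (adjusted p = 0.606, edgeR).

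Among the transcription factors, Nr3c1, the glucocorticoid receptor, was lower with cisplatin at a log2 fold change of -0.87 (adjusted p = 0.00442, edgeR), under the size required for a call, and reached -1.17 and a call without cisplatin 1 and 3. Cd36, a scavenger receptor that binds serum amyloid A, fell from 888 to 248 CPM (log2 fold change -1.84, adjusted p = 0.00640, edgeR).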
